A study of Homo sapiens with 12 samples.

Results

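The genes described here encode proteins of 2 cell-cell contacts of epithelia, the adherens junction and the tight junction. The set comprised 9 genes: CDH1, CDH6, CTNNA1, CTNNB1, CLDN1, OCLN, TJP1, CGN and F11R. They were named with earlier results of these data known, and each was read from the probe sets that the platform annotation assigns to that gene alone. Such probe sets were found for 8 of the 9, among 19775 genes with one in the whole table, and F11R is not analysed here. The brightest probe set of each gene, by its mean on all 12 arrays, stands for the gene, and its other probe sets were used as a check.

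RNA came from HK-2 cells, an immortalised line of human renal proximal tubular epithelial cells. Nearly confluent cells received Aa for 24 h or 48 h, or its control vehicle for the same times. Aa is the label of a compound, and the sample titles add hd, read here as high dose. The 4 groups, Aa at 24 h, control at 24 h, Aa at 48 h and control at 48 h, each held 3 biological replicates of this single line. All groups were grown in the same medium with EGF, hydrocortisone, insulin, transferrin and selenite, and neither the identity and dose of Aa nor the vehicle is given in the sources used here.

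In the adherens junction, classical cadherins span the membrane and bind cadherins of the neighbouring cell. Beta-catenin binds the cadherin tail and alpha-catenin links it to actin. In the tight junction, claudins and occludin are the strands that seal the space between cells, and the scaffold ZO-1 and the plaque protein cingulin tie them to the cytoskeleton. The proximal tubule has a leaky epithelium, and cadherin-6 is among the cadherins it is known for.

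All values below are log2 expression values of the deposited table. Array medians lay between 2.91 and 3.02, and a value under log2 4 was treated as near background. Changes are Aa minus control of the same time, so a negative value is lower in Aa. They were tested with limma over 11184 genes that were over log2 4 on at least 3 arrays, and a gene was called at a Benjamini-Hochberg adjusted p under 0.05. The main fit did not use the replicate numbers, although these paired the samples. A fit with the replicate number as a block is given for the junction genes whose calls it changed. With 3 arrays against 3, the smallest p-value an exact two-sided permutation test could reach is 0.1, so no such test was run for single genes. Levels of different genes come from different probes and are not set against each other. Bulk RNA cannot tell fewer cells of a type from less RNA per cell.

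Most of the junction genes were lower in Aa-treated cells at both times. None of the 8 was called higher, where 26.3% of all tested genes were called higher at 24 h and 30.6% at 48 h. At 24 h, 5 of 8 were called lower (62.5%), where 22.8% of all tested genes were called lower and 49.1% were called in either direction. At 48 h, 6 of 8 were called lower (75%), where 33.9% of all tested genes were called lower and 64.5% in either direction. The median change of the 8 genes was -0.62 at 24 h and -0.97 at 48 h, beside 0.02 and -0.03 over all tested genes. A fall of at least 2-fold was seen in CDH1 and CDH6 at 24 h, and in CDH1, CDH6, CLDN1 and OCLN at 48 h. The 3 Aa arrays lay below all 3 control arrays for 6 of the 8 genes at 24 h and again for 6 at 48 h, which held for 29% and 36.1% of all tested genes.

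**Figure D1:**
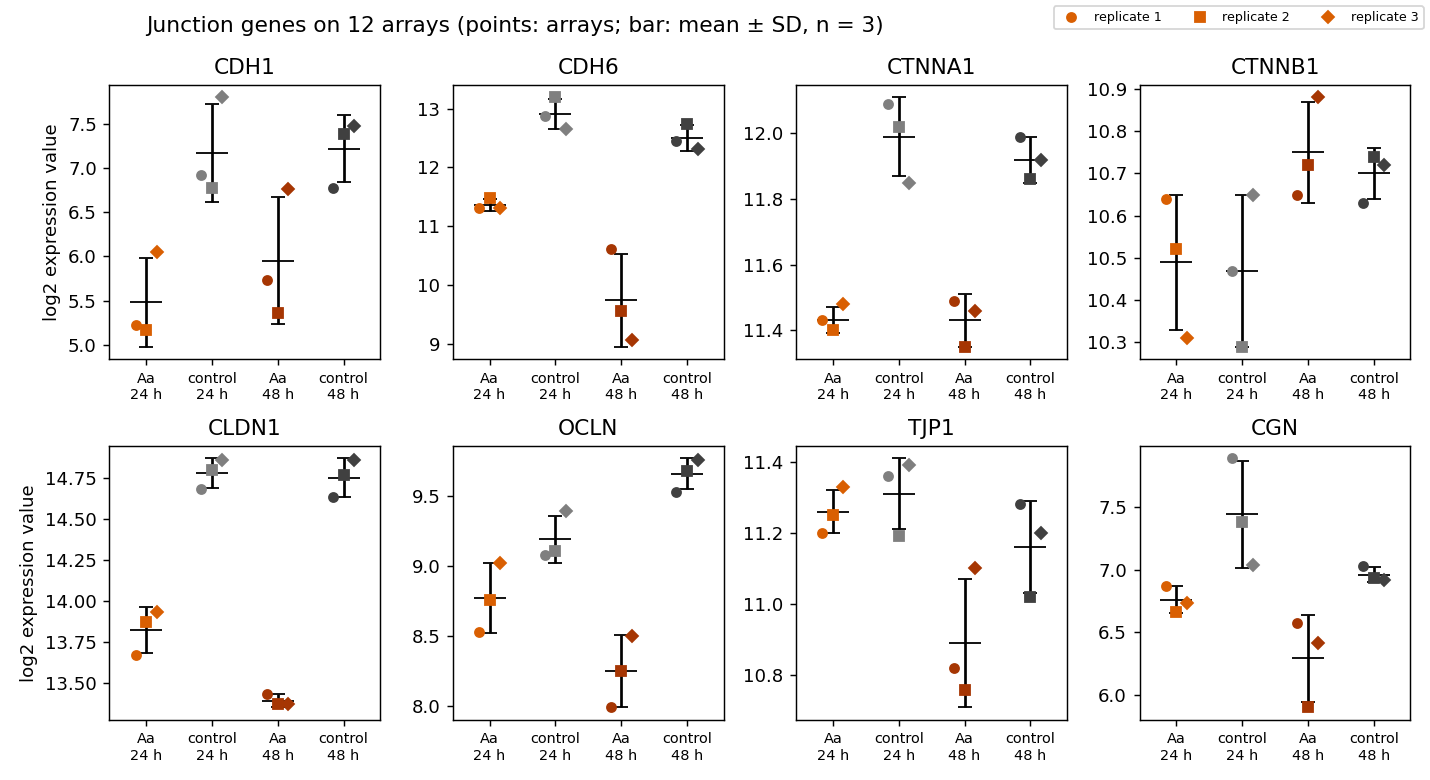
Log2 expression value (y axis, a separate scale in each panel) of 8 junction genes on each of the 12 arrays, by group (x axis). Points are arrays, with a marker shape for each replicate number, and bars are the mean ± SD (n = 3). The Aa arrays lie below the controls of the same time for CDH1, CDH6, CTNNA1, CLDN1, OCLN and CGN at both times, and the groups overlap for CTNNB1 and TJP1.

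Both cadherins fell. CDH1 encodes E-cadherin, the classical epithelial cadherin. Its values were 5.22, 5.17 and 6.05 in Aa-treated cells at 24 h, against 6.92, 6.78 and 7.80 in the controls. The groups did not overlap, and the third replicate was the highest of its group under both treatments. The change was -1.68 ± 0.395 (SE, limma adjusted p = 0.0045), which is 3.21-fold lower in Aa.

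At 48 h CDH1 was at 5.73, 5.36 and 6.76 in Aa-treated cells, against 6.78, 7.39 and 7.48 in the controls. The highest Aa array thus lay just under the lowest control array. The change was -1.27 ± 0.395 (SE, limma adjusted p = 0.0154), 2.41-fold lower. This call rested on single arrays: it was lost without Aa replicate 2 at 48 h (-0.98, adjusted p = 0.0645) or without control replicate 3 at 48 h (-1.14, adjusted p = 0.0513). The other CDH1 probe set was near background on all 12 arrays, with group means of 2.33 to 2.36, so a single probe set carries the result for CDH1.

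CDH6 encodes cadherin-6, also called K-cadherin, a cadherin of the proximal tubule. It was at 11.31, 11.48 and 11.30 in Aa-treated cells at 24 h, against 12.87, 13.19 and 12.66 in the controls. All Aa arrays lay more than 1 log2 unit below every control array. The change was -1.54 ± 0.314 (SE, limma adjusted p = 0.00192), a 2.92-fold fall.

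By 48 h the Aa arrays for CDH6 had spread out, at 10.61, 9.55 and 9.06, against 12.44, 12.74 and 12.31 in the controls. This was the largest change among the 8 genes, -2.75 ± 0.314 (SE, limma adjusted p = 2.03e-05), or 6.74-fold lower. Replicate 1 fell least and replicate 3 most. The 48 h change was 1.21 more negative than the 24 h change, with a 95% interval of 0.23 to 2.19 for the size of that difference, and did not pass over all genes (limma adjusted p = 0.0776). It passed with the replicate number as a block (adjusted p = 0.0402) and without Aa replicate 1 at 48 h (-1.65, adjusted p = 0.00361).

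CDH6 has 6 probe sets, all over the expression filter, and they did not all show the same size of change. At 24 h 4 of the 6 were called lower, with falls between 0.56 and 1.81 on the log2 scale. The 2 others were at 0.06 (limma adjusted p = 0.878) and -0.03 (limma adjusted p = 0.922). At 48 h 5 of the 6 were called lower, and the remaining one was at -0.04 (limma adjusted p = 0.861) around a level of 5.61 in Aa-treated cells and 5.65 in controls.

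The catenins behaved differently from each other. CTNNA1 encodes alpha-E-catenin, the link to actin. It was at 11.43, 11.40 and 11.48 in Aa-treated cells at 24 h, against 12.09, 12.02 and 11.85 in controls. Neither group varied much and they did not overlap, so that a modest fall of 1.47-fold (-0.55 ± 0.0926, SE) had a limma adjusted p of 0.00054.

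At 48 h CTNNA1 was at 11.49, 11.35 and 11.46 in Aa-treated cells, against 11.99, 11.86 and 11.92 in controls. The change was -0.49 ± 0.0926 (SE, limma adjusted p = 0.000769), 1.4-fold lower, and the difference between the times was 0.06 with a 95% interval of -0.23 to 0.35. All 4 of its probe sets over the filter were called lower at both times, with changes between -1.06 and -0.49.

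CTNNB1 encodes beta-catenin, which binds cadherin tails and also acts as a coactivator of transcription in Wnt signalling. Its values were 10.64, 10.52 and 10.31 in Aa-treated cells at 24 h, against 10.47, 10.29 and 10.65 in controls. At 48 h they were 10.65, 10.72 and 10.88 in Aa-treated cells, against 10.63, 10.74 and 10.72 in controls. The groups overlapped at both times. The changes were 0.02 (95% interval -0.25 to 0.29, limma adjusted p = 0.898) and 0.05 (-0.22 to 0.32, limma adjusted p = 0.734).

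The intervals for CTNNB1 leave room for a shift of up to about 0.3 log2 units either way. A dimmer CTNNB1 probe set differed: it was lower in Aa at 24 h, at a mean of 5.85 against 6.48 in controls (-0.63, limma adjusted p = 0.00668), and at 48 h its change was -0.18 (limma adjusted p = 0.35). The sign of the CTNNB1 change also depended on the scaling, as described further on.

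Among the membrane proteins of the tight junction, CLDN1 showed the most uniform fall. It encodes claudin-1, a sealing claudin. Values were 13.67, 13.87 and 13.93 in Aa-treated cells at 24 h, against 14.68, 14.80 and 14.86 in controls. The gap between the groups was larger than the spread within them. The change was -0.96 ± 0.103 (SE, limma adjusted p = 2.58e-05), a 1.94-fold fall.

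At 48 h the 3 Aa arrays for CLDN1 lay at 13.43, 13.37 and 13.37, against 14.63, 14.77 and 14.86 in controls. The change was -1.36 ± 0.103 (SE, limma adjusted p = 1.08e-06), 2.57-fold lower. The Aa groups of the 2 times did not overlap each other, and the controls of the 2 times did. The larger fall at 48 h differed from that at 24 h by -0.40 (95% interval -0.73 to -0.08, limma adjusted p = 0.073), which passed with the replicate block (adjusted p = 0.0207). The other CLDN1 probe set changed by -1.44 at 24 h and by -1.96 at 48 h, and was called lower at both times.

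OCLN encodes occludin, a tetraspan protein of the tight junction strand. At 24 h its values were 8.53, 8.76 and 9.02 in Aa-treated cells, against 9.08, 9.11 and 9.39 in controls. The groups did not overlap, but by a small margin. The change of -0.42 ± 0.162 (SE, 95% interval -0.78 to -0.06) narrowly missed the threshold (limma adjusted p = 0.0505), and it passed with the replicate block (adjusted p = 0.00167).

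At 48 h OCLN was at 7.99, 8.25 and 8.50 in Aa-treated cells, against 9.53, 9.68 and 9.76 in controls. The change was -1.41 ± 0.162 (SE, limma adjusted p = 2.19e-05), a 2.65-fold fall. Without the replicate block, OCLN was the only one of the 8 genes whose change differed between the times over all genes. The difference was -0.98 ± 0.23 (SE, limma adjusted p = 0.0157), where 19.5% of all tested genes were called in that contrast and 12.7% were called lower. With the block 3 of the 8 genes were called in it, CDH6 and CLDN1 among them. That is near the share over all genes, 4314 of 11184 with the block. The Aa mean was 8.77 at 24 h and 8.25 at 48 h, and the control mean was 9.19 at 24 h and 9.66 at 48 h. The OCLN difference between the control times was 0.47, higher at 48 h (limma adjusted p = 0.185), and it passed with the replicate block (adjusted p = 0.0098).

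The other OCLN probe sets were dim. One of them averaged 2.79 in Aa-treated cells at 48 h, against 5.99 in controls, where all 3 Aa arrays were near background. At 24 h it changed by -0.45 (limma adjusted p = 0.088). Another changed by 0.31 at 24 h (limma adjusted p = 0.518) and by -0.68 at 48 h (limma adjusted p = 0.121). The last was near background on all arrays.

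**Figure D2:**
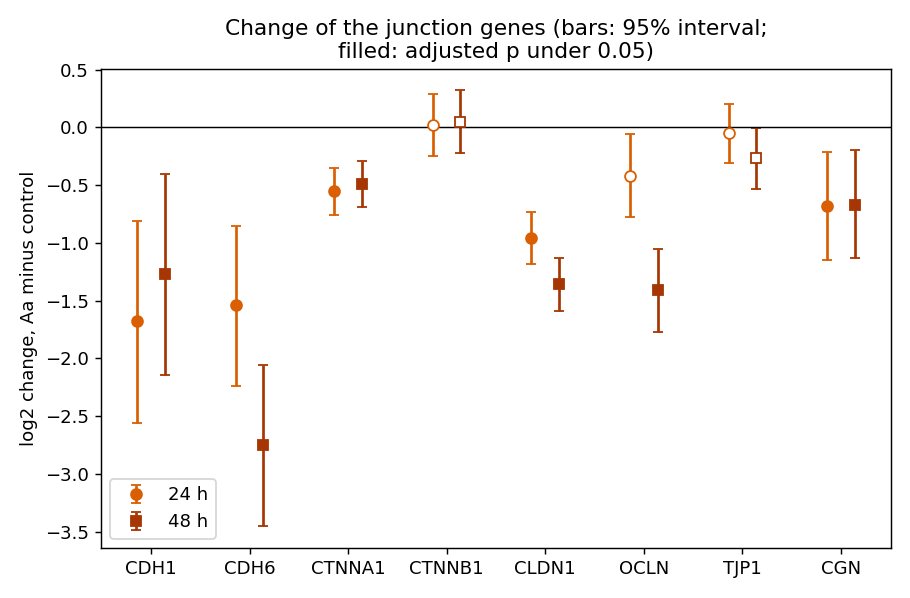
Log2 change, Aa minus control (y axis), of each junction gene (x axis) at 24 h and 48 h, with 95% intervals from limma. Filled points passed an adjusted p under 0.05, as did 5 genes at 24 h and 6 at 48 h. The intervals of OCLN at the 2 times do not overlap.

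Without the replicate block, the scaffold gene TJP1 was not called, and the plaque gene CGN was called lower at both times. TJP1 encodes ZO-1, the scaffold that binds claudins and occludin. It was at 11.20, 11.25 and 11.33 in Aa-treated cells at 24 h, against 11.36, 11.19 and 11.39 in controls. At 48 h it was at 10.82, 10.76 and 11.10 in Aa-treated cells, against 11.28, 11.02 and 11.20 in controls. The groups overlapped at both times.

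The TJP1 changes were -0.05 at 24 h (95% interval -0.31 to 0.20, limma adjusted p = 0.728) and -0.27 at 48 h (-0.53 to -0.01, limma adjusted p = 0.0609). Each Aa array at 48 h was lower than the control of the same replicate number, and with the replicate block the 48 h change passed (adjusted p = 0.02). The second TJP1 probe set changed by -0.42 at 24 h (limma adjusted p = 0.0703) and was called lower at 48 h (-0.58, limma adjusted p = 0.0145).

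CGN encodes cingulin, a plaque protein that binds ZO-1 and the cytoskeleton. Values were 6.87, 6.66 and 6.73 in Aa-treated cells at 24 h, against 7.89, 7.38 and 7.04 in controls, where the spread was in the controls. The change was -0.68 ± 0.212 (SE, limma adjusted p = 0.0207), 1.6-fold lower. At 48 h they were 6.57, 5.90 and 6.41 in Aa-treated cells, against 7.03, 6.93 and 6.92 in controls, a change of -0.67 ± 0.212 (SE, limma adjusted p = 0.0173).

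The groups did not overlap for CGN at either time, but its calls rested on single arrays. The 24 h call was lost without Aa replicate 2 (adjusted p = 0.0604), Aa replicate 3 (0.0519) or control replicate 1 (-0.45, adjusted p = 0.0798), and the 48 h call without Aa replicate 2 (-0.47, adjusted p = 0.0725). The other CGN probe set was called lower at both times (-0.56 at 24 h, limma adjusted p = 0.0271, and -0.50 at 48 h, limma adjusted p = 0.0348).

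**Figure D3:**
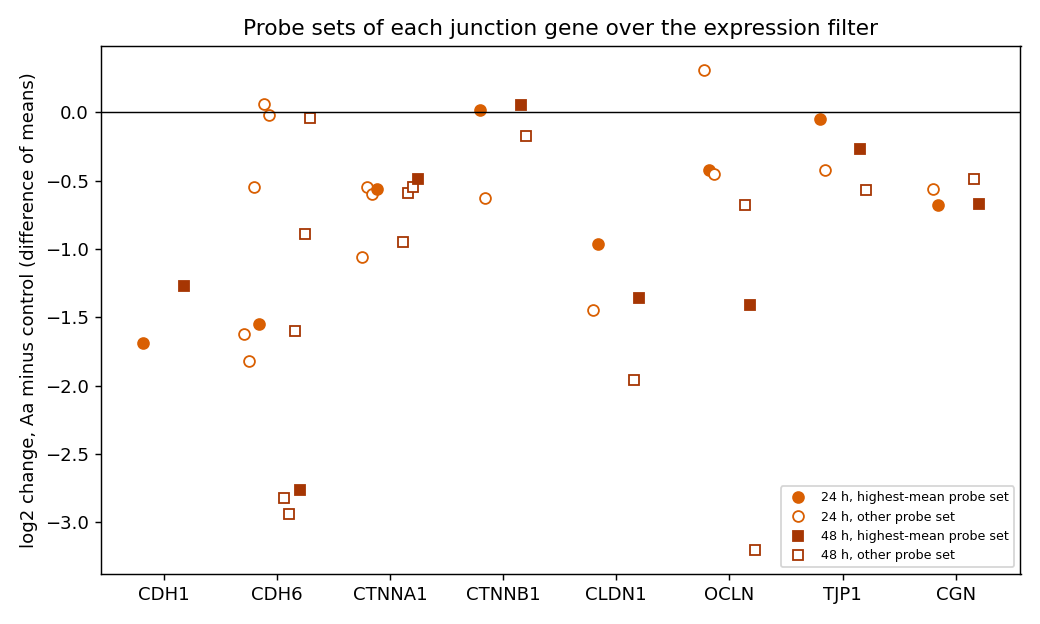
Log2 change, Aa minus control (y axis, difference of group means), of every probe set of the 8 junction genes that passed the expression filter (x axis: gene). Filled points are the highest-mean probe sets and open points the others, with circles for 24 h and squares for 48 h. The spread is widest for CDH6 and OCLN at 48 h, and all 4 CTNNA1 probe sets lie below 0 at both times.

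The order of the 4 groups differed between genes. For CDH6 and CLDN1 it was control at 24 h, control at 48 h, Aa at 24 h and Aa at 48 h from highest to lowest, and only the 2 controls overlapped. CTNNA1 had the same order, with overlap between the 2 controls and between the 2 Aa groups. For CDH1 the order was control at 48 h, control at 24 h, Aa at 48 h and Aa at 24 h, with overlap within each treatment. OCLN ran from control at 48 h through control at 24 h and Aa at 24 h to Aa at 48 h, and no neighbours overlapped. CGN ran from control at 24 h through control at 48 h and Aa at 24 h to Aa at 48 h, again with no overlap, although its lowest control value at 24 h (7.04) and its highest at 48 h (7.03) nearly met. All neighbours overlapped for CTNNB1 and for TJP1.

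Between the control times, 0 of the 8 genes was called by limma, where 0.635% of all tested genes were called. OCLN and CGN had an unadjusted p under 0.05 there, at 0.0157 for OCLN and 0.0466 for the CGN difference of -0.48.

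For each gene the tested gene with the most similar profile was found by Pearson correlation over the 12 arrays. These were CYTH2 for CDH1 (0.959), FOXP1 for CDH6 (0.990), PAPSS1 for CTNNA1 (0.979), AK3 for CTNNB1 (0.875), DOK1 for TJP1 (0.929), VRK2 for CLDN1 (0.995), GJA1 for OCLN (0.974) and TSPAN2 for CGN (0.918). The 12 arrays share their split by treatment, and these values are given as a description. GJA1 encodes the gap junction protein connexin 43, and it was at 9.37, 9.15 and 9.93 in Aa-treated cells at 48 h, against 11.64, 12.17 and 11.94 in controls.

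Upstream sequence was read for genes described above, from RefSeq (GRCh38.p14), as the 250 bases before an annotated start. Entries were found for 6 of the 8 genes, with 13 starts in all, and CDH1 and CDH6 were not searched. They were searched on both strands for the E-box CAGGTG or its reverse complement CACCTG, the letters bound by the Snail and ZEB repressors of cadherin genes, since SNAI1, SNAI2 and ZEB1 changed. The motif was found in 3 of the 13 windows, from OCLN and TJP1, and in 17.5% of all 35116 promoter windows of the same length. For comparison 3 windows are printed, each 5′ to 3′ on the gene's strand, with the motif in capitals. OCLN and CLDN1 are the tight junction membrane genes, both called lower at 48 h. TJP1 is the scaffold gene that was not called without the replicate block.
OCLN upstream start, chr5:69492297-69492546 (+): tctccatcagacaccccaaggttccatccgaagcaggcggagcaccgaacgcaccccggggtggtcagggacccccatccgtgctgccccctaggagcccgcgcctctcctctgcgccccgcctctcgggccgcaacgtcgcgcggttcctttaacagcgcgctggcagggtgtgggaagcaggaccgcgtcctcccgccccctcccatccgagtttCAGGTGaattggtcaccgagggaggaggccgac
CLDN1, chr3:190322447-190322696 (-): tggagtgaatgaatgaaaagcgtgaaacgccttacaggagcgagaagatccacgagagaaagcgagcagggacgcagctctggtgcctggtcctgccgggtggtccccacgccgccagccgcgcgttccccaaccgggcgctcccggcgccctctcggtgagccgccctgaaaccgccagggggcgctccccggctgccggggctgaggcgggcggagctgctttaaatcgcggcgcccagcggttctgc
TJP1 first start, chr15:29969050-29969299 (-): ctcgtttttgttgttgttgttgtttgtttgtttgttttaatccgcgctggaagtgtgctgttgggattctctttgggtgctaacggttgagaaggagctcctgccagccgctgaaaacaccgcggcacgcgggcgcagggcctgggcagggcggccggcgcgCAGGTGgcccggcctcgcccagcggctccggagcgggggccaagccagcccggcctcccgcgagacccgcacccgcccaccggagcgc
Counted from the start, the motif begins at position -33 in OCLN and at -88 in TJP1. The letters are not in the CLDN1 window. A match describes the letters and is not evidence of binding.

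Other tight junction genes moved in both directions. Of 28 listed genes 18 were tested, and at 24 h 9 were called lower and 3 higher, with a median change of -0.25. At 48 h 7 were called lower and 4 higher, with a median of -0.31, beside a median of -0.03 for all tested genes. Over all tested genes, 22.8% were called lower and 26.3% higher at 24 h, and 33.9% lower and 30.6% higher at 48 h. CLDN2, the pore-forming claudin of the proximal tubule, was at 9.04, 8.81 and 8.08 in Aa-treated cells at 24 h, against 11.39, 11.26 and 10.92 in controls (-2.55, limma adjusted p = 0.000114). Those groups lay more than 1 log2 unit apart.

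CLDN2 was also lower at 48 h (-2.14, limma adjusted p = 0.000218). CLDN16, known for paracellular magnesium transport in the thick ascending limb, changed by -2.49 at 24 h (limma adjusted p = 0.00497) and by -2.97 at 48 h (limma adjusted p = 0.00114). MAGI3, a scaffold of the MAGUK family, was at 3.27 in Aa-treated cells at 48 h, against 6.94 in controls, and with Aa arrays set to the floor of log2 4 it was at least 7.52-fold lower at 24 h and at least 7.68-fold lower at 48 h (limma adjusted p = 3.08e-07 and 1.27e-07).

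The polarity complexes position junctions along the cell. Of 14 listed genes 13 were tested, with 7 called lower and 1 higher at 24 h, and 9 lower and 2 higher at 48 h. Beside them, 22.8% of all tested genes were called lower at 24 h and 33.9% at 48 h. Their medians were -0.60 at 24 h and -0.94 at 48 h. PARD3, the scaffold of the PAR complex, was at 6.42, 6.64 and 7.12 in Aa-treated cells at 24 h, against 9.25, 9.41 and 9.33 in controls, 6.08-fold lower (limma adjusted p = 7.25e-07).

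PARD3 was likewise lower at 48 h (-2.46, limma adjusted p = 6.01e-07). PATJ, a scaffold of the Crumbs complex, fell by 1.40 at 24 h and by 2.89 at 48 h on the log2 scale (limma adjusted p = 0.0011 and 3.62e-06). CRB3, the epithelial Crumbs protein, changed by -1.62 at 24 h (limma adjusted p = 0.000171), and PARD6B, a partner of PARD3, by -1.96 at 48 h (limma adjusted p = 3.99e-06).

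Other adherens junction genes were called lower more often than higher. Of 22 listed genes 14 were tested, with 4 called lower and 1 higher at 24 h, and 8 lower and 1 higher at 48 h, and medians of -0.11 and -0.58. The count called lower at 24 h is near the share over all tested genes, 22.8% (33.9% at 48 h), and the count called in either direction is below the 49.1% of all tested genes. CDH2, which encodes N-cadherin, was at 7.41, 6.45 and 7.18 in Aa-treated cells at 48 h, against 9.46, 9.08 and 8.91 in controls. The groups were far apart, and the fall was 4.4-fold (limma adjusted p = 1.96e-05), after 3.3-fold at 24 h (limma adjusted p = 0.000167). N-cadherin was lower together with E-cadherin and cadherin-6.

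CDH3, which encodes P-cadherin, was lower at 48 h (-1.06, limma adjusted p = 0.00256), and LIMA1, an actin-binding partner of the cadherin complex, at both times (-0.90 and -1.19, limma adjusted p = 0.00553 and 0.000638). JUP, which encodes plakoglobin, was called lower at 24 h (-0.54, limma adjusted p = 0.043), a call lost without any one of 7 arrays (adjusted p up to 0.15), and changed by -0.23 at 48 h (limma adjusted p = 0.324, and 0.0441 with the replicate block). PLEKHA7, a protein of the apical adherens junction, was at least 2.42-fold higher in Aa at 24 h (limma adjusted p = 3.53e-05), with an opposite sign in its second probe set, and near log2 4 in both groups at 48 h. CTNND1, which encodes p120-catenin, has no probe set that the annotation assigns to it alone.

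Desmosomes are anchored to keratin and gap junctions join the cytoplasm of neighbours. Of 10 listed desmosome genes 7 were tested, and 2 were called lower at each time and 1 higher at 48 h, with medians of -0.05 at 24 h and 0.13 at 48 h, the 48 h median turning to -0.31 when arrays were scaled to hybridisation controls. These counts are close to the shares of all tested genes called lower, 22.8% at 24 h and 33.9% at 48 h. PKP4 was lower at both times (-0.64 and -1.60, limma adjusted p = 0.0398 and 0.000118), PKP2 was at least 1.34-fold and at least 1.35-fold lower (limma adjusted p = 0.00497 and 0.00273, but 0.103 at 48 h with all values floored at log2 4), and DSP, the plaque protein desmoplakin, was higher at 48 h (0.85, limma adjusted p = 0.00749). Of the 3 tested gap junction genes, GJA1 was called lower at 24 h (-0.92, limma adjusted p = 0.0088) and both GJA1 (-2.43, limma adjusted p = 7.57e-06) and GJB1 (-0.74, limma adjusted p = 0.0178) at 48 h. Without single arrays the calls of PKP4 at 24 h and GJB1 at 48 h were lost (adjusted p up to 0.141 and 0.073).

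Among regulators of cadherin transcription, the Snail genes stood out at 48 h. SNAI1, a repressor of CDH1, was at 5.77, 5.44 and 5.70 in Aa-treated cells at 24 h, against 4.52, 3.90 and 4.49 in controls. At 48 h it was at 8.45, 7.64 and 8.82 in Aa-treated cells, against 4.43, 3.83 and 3.84 in controls. No Aa array overlapped a control array, and SNAI1 was at least 2.46-fold higher at 24 h and at least 17.9-fold higher at 48 h (limma adjusted p = 0.00294 and 5.11e-07).

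SNAI2, which encodes Slug, was near background on all arrays at 24 h, at 2.73, 2.66 and 2.79 in Aa-treated cells and 2.70, 2.69 and 2.75 in controls. At 48 h it was at 6.10, 5.67 and 6.31 in Aa-treated cells, against 2.69, 2.67 and 2.70 in controls, and so was at least 4.07-fold higher (limma adjusted p = 1.73e-08).

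ZEB1, another repressor of CDH1, changed by -0.56 at 24 h (limma adjusted p = 0.0501, and 0.0454 with the replicate block) and was lower at 48 h (-1.15, limma adjusted p = 0.000731). TWIST1 changed by -0.01 and -0.20 (limma adjusted p = 0.974 and 0.461), and ZEB2 did not pass the expression filter and was not tested. KLF4, a transcription factor of epithelia, was at 10.58, 10.24 and 10.93 in Aa-treated cells at 48 h, against 7.15, 7.52 and 8.39 in controls (2.89, limma adjusted p = 1.1e-05).

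Of the 9 tested regulators, 2 were called higher and 2 lower at 24 h, near the shares over all tested genes, 26.3% higher and 22.8% lower. At 48 h 4 were called higher and 4 lower, where 30.6% of all tested genes were called higher and 33.9% lower. ESRP1, a splicing factor of epithelial cells, was lower at 24 h (-1.51, limma adjusted p = 0.000159) and at least 3.49-fold lower at 48 h (limma adjusted p = 1.63e-05). TCF4 was at least 2.49-fold lower at 24 h and at least 2.41-fold lower at 48 h (limma adjusted p = 0.00427 and 0.00671). TCF3, called higher at both times (1.42 and 0.87, limma adjusted p = 1.64e-05 and 0.000301), had 9 probe sets over the filter, of which 5 were lower and 4 higher at 24 h, and 6 lower and 3 higher at 48 h, and their mean changed by -0.28 and -0.25 (limma adjusted p = 0.0965 and 0.113).

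The genes that turn over beta-catenin or act with it in the nucleus mostly fell at 48 h, while CTNNB1 was not called. Of 14 listed, 8 were tested, with 4 called lower at 24 h and 7 at 48 h and 0 called higher at either time, and medians of -0.47 and -1.13. Of all tested genes, 22.8% were called lower at 24 h and 33.9% at 48 h. GSK3B, the kinase that marks beta-catenin for destruction, was at 9.09, 8.97 and 8.02 in Aa-treated cells at 48 h, against 11.28, 11.24 and 11.02 in controls (-2.49, limma adjusted p = 5.44e-06). BTRC, the F-box protein that binds marked beta-catenin, changed by -1.77 at 48 h (limma adjusted p = 1.23e-05), and TCF7L2, a DNA-binding partner of beta-catenin, by -1.59 at 24 h and -2.34 at 48 h (limma adjusted p = 0.000163 and 5.68e-06).

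Known beta-catenin targets were called in both directions. Of the 7 tested of 13 listed, 1 was called higher and 1 lower at 24 h, and 4 higher and 2 lower at 48 h. Over all tested genes 49.1% were called in either direction at 24 h, and 30.6% higher and 33.9% lower at 48 h. CCND1, which encodes cyclin D1, was higher at 48 h (2.36, limma adjusted p = 3.44e-05), and DKK1, a secreted Wnt inhibitor, was at least 5.6-fold higher (limma adjusted p = 1.37e-05). MYC was lower at both times (-0.75 and -1.20, limma adjusted p = 0.00121 and 2.78e-05). RNF43, a membrane ubiquitin ligase of Wnt receptors, was called higher at both times (0.81 and 0.43, limma adjusted p = 0.00185 and 0.04), but the 48 h call was lost without any one of 7 arrays (adjusted p up to 0.158).

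Of 7 tested genes of cadherin cleavage and endocytosis, 3 were called higher and 1 lower at 24 h, and 1 higher and 1 lower at 48 h, where all tested genes had 49.1% and 64.5% called in either direction at the 2 times. ADAM10, the protease that sheds E-cadherin, was lower at both times (-0.73 and -1.14, limma adjusted p = 0.000136 and 3.04e-06). ADAM17 was called higher at 24 h (0.36, limma adjusted p = 0.0181), which was lost without any one of 3 arrays (adjusted p up to 0.0785). CBLL1, which encodes Hakai, a ubiquitin ligase for E-cadherin, was called higher at both times (0.72 and 0.48, limma adjusted p = 0.0018 and 0.0131), the 48 h call being lost without Aa replicate 3 (adjusted p = 0.0555).

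**Figure D4:**
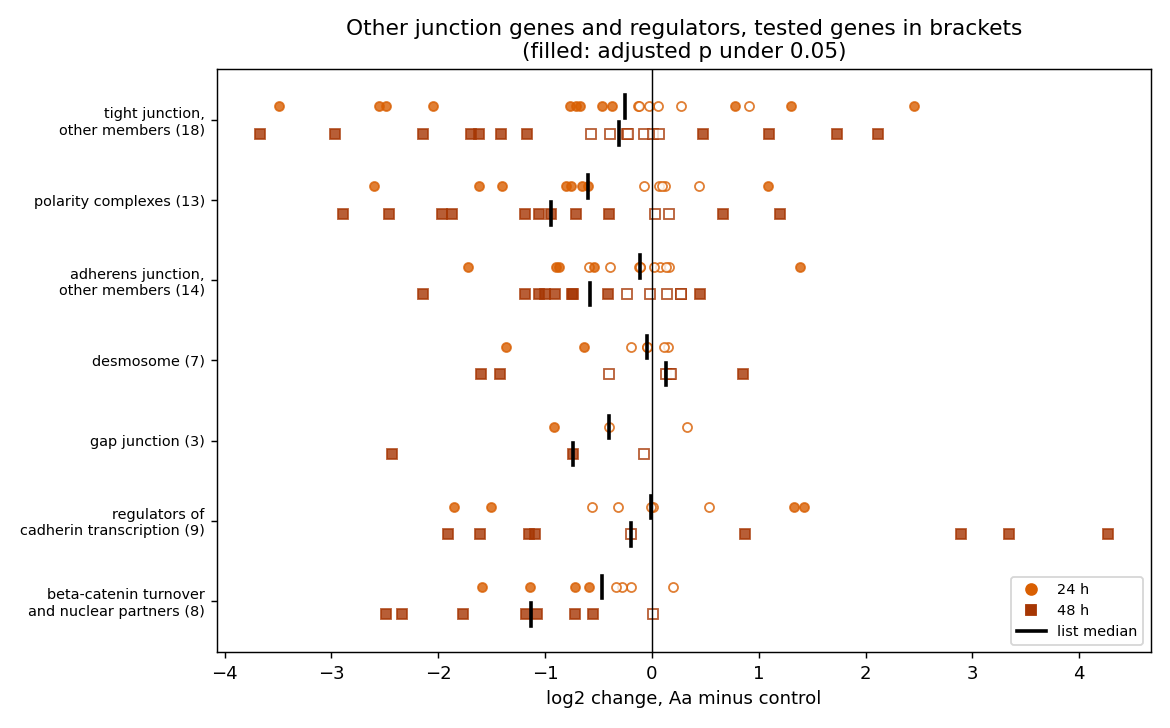
Log2 change, Aa minus control (x axis), of the tested genes of 7 lists (y axis, number tested in brackets), with circles for 24 h and squares for 48 h. Filled points passed an adjusted p under 0.05 and black bars are list medians. Polarity genes and genes of beta-catenin turnover lie mostly left of 0, and SNAI1, SNAI2 and KLF4 are the 3 points to the far right among regulators at 48 h.

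Gene span moved with the change over the whole table, and it is given here beside the junction genes. Over all tested genes with a RefSeq span, the median change at 48 h was 0.18 for 4234 genes up to 20 kb, 0.02 for 4982 genes of 20 to 100 kb, -0.68 for 1254 genes of 100 to 200 kb and -1.90 for 708 longer genes. The share called lower at 48 h was 21.2%, 29.9%, 62.7% and 86.3% in that order. At 24 h the medians were 0.08, 0.11, -0.35 and -1.41.

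The 8 junction genes lay on both sides of these medians. CLDN1 spans 16.7 kb, CGN 28.5 kb, OCLN 65.6 kb and CDH1 98.2 kb, and their changes at 48 h lay far below the medians of their span ranges. CDH6, of 135 kb, was also below the median of its range. CTNNB1, of 40.9 kb, was at 0.05 at 48 h, close to the 0.02 of its range. CTNNA1 spans 182 kb and TJP1 270 kb, and their changes at 48 h, -0.49 and -0.27, were closer to 0 than the medians of their ranges.

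Among the other tight junction, polarity and adherens junction genes together with these 8, 19 spanned over 100 kb, of which 16 were called lower and 0 higher at 48 h, with a median of -1.19. The 34 shorter ones had 14 lower and 7 higher, with a median of -0.22. PARD3, MAGI3, PATJ and CDH2 span 706, 295, 421 and 244 kb. Of the genes that turn over beta-catenin or act with it, GSK3B, BTRC and TCF7L2 span 273, 203 and 217 kb. In the range over 200 kb, 86.3% of all tested genes were called lower at 48 h. The part of span in the changes of single genes was not tested.

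**Figure D5:**
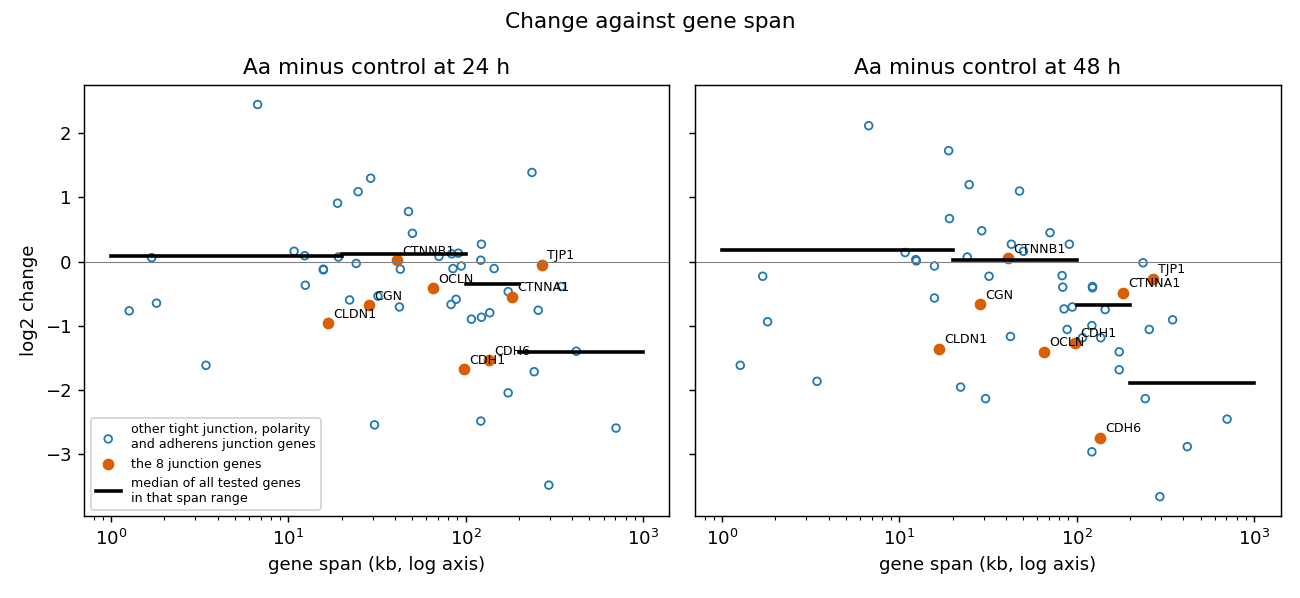
Log2 change, Aa minus control (y axis), against gene span in kb (log axis) at 24 h (left) and 48 h (right). Filled points are the 8 junction genes, open points the other tested tight junction, polarity and adherens junction genes, and black bars the median of all tested genes in 4 span ranges, -1.90 for genes over 200 kb at 48 h. TJP1 lies above the bar of its range and CDH6, CLDN1, CGN, OCLN and CDH1 lie below theirs at 48 h.

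Over all probe sets, Pearson correlations were 0.949 to 0.976 between Aa and control arrays and 0.994 to 0.997 within a group. Of 12 proximal tubule markers, 3 were tested (SLC3A1, PDZK1 and CDH6) and 8 were over log2 4 on no array, AQP1 and LRP2 among the 9 not tested. The summed level of the 12, CDH6 included, was 11.75 to 12.09 in Aa-treated cells at 24 h, against 12.97 to 13.52 in controls. At 48 h it was 10.74 to 11.59 in Aa-treated cells, against 12.84 to 13.41 in controls. CDH6 alone was at 11.30 to 11.48 in Aa-treated cells at 24 h, against 12.66 to 13.19 in controls. Most of the summed signal at 24 h was thus that of its probe set, which does not compare transcript amounts between genes. SLC3A1 changed by -1.96 at 24 h and -3.50 at 48 h (limma adjusted p = 0.00361 and 4.3e-05). PDZK1 changed by -0.45 at 24 h and was not called (limma adjusted p = 0.188), but was called lower with the replicate block. At 48 h PDZK1 changed by -1.02 (limma adjusted p = 0.00634). All 6 epithelial markers, CDH1 included, were tested. At 24 h 0 were called higher and 3 lower, where 26.3% of all tested genes were called higher and 22.8% lower. Their summed level at 24 h was 14.39 to 14.61 in Aa-treated cells, against 14.86 to 15.03 in controls. At 48 h 2 were called higher and 3 lower, where 30.6% of all tested genes were called higher and 33.9% lower. Those called higher were KRT7 (1.33, limma adjusted p = 0.000613) and KRT8 (0.71, limma adjusted p = 0.0237). Only 1 was called higher with no filter on low values, and likewise with hybridisation-control scaling. Called lower were KRT19 (-1.37, limma adjusted p = 9.48e-05), EPCAM (-0.44, limma adjusted p = 0.0121) and CDH1. At 24 h those called lower were KRT18 (-0.62, limma adjusted p = 0.00224), KRT19 (-1.11, limma adjusted p = 0.000678) and CDH1. The summed level at 48 h was 14.39 to 14.75 in Aa-treated cells, against 14.64 to 14.90 in controls. Of 7 distal nephron markers 2 were tested, SLC12A1 and CDH16, and 0 were called at either time. CDH16 had group means of 8.92 to 9.61. Of 6 fibroblast markers DCN, LUM and COL1A1 were tested. At 24 h COL1A1 was called lower (-0.73, limma adjusted p = 0.00947), with a summed level of 11.85 to 12.35 in Aa-treated cells, against 12.26 to 12.77 in controls. At 48 h 0 of them were called, with a summed level of 12.02 to 12.24 in Aa-treated cells at 48 h, against 12.18 to 12.44 in controls. Of 6 leukocyte markers 0 were tested, and of the 6 endothelial markers TEK and CLDN5 were tested at levels near 4. The signal of ACTB and GAPDH probe sets at the 3′ end over the 5′ end averaged 0.54 ± 0.13 log2 units in Aa-treated cells at 48 h, against 0.32 ± 0.09 in controls (SD, n = 3), and 0.39 ± 0.14 in Aa-treated cells at 24 h, against 0.31 ± 0.06 in controls. The part of these markers and of RNA quality in the results was not tested.

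The deposited values had nearly equal array medians, which would hide any shift common to most transcripts. When the arrays were instead scaled to the 18 hybridisation-control probe sets, the median change of all tested genes was -0.26 at 24 h and -0.47 at 48 h. The same scaling also moved the controls, with a median of -0.32 for control at 48 h minus control at 24 h. In that contrast 32 genes were called higher and 1921 lower. Whether this scaling follows the RNA content of the cells was not tested. Calls over all genes were then 1664 higher and 3903 lower at 24 h (29.9% higher, against 53.6% before), and 1806 higher and 5981 lower at 48 h (23.2% higher, against 47.5%). The median of the junction genes was -0.90 at 24 h and -1.41 at 48 h on that scale, below the median of all genes as before. All 8 were then called lower at 48 h, and CTNNB1 was at -0.26 at 24 h (limma adjusted p = 0.131) and -0.39 at 48 h (limma adjusted p = 0.0233), which is close to the median of all genes.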

How the data were processed

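Total RNA of HK-2 cells was hybridised as biotinylated cRNA to 12 Affymetrix arrays, per the labels' protocols. The deposited log2 expression values were made by the authors with GCRMA, per the submitters' processing notes, which corrects background, normalises between arrays and summarises probe sets. Log base 2 fits the range of the values.

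Of 54675 probe sets, 62 were controls and 41091 named 1 gene, which gave 19775 genes, each represented by its highest-mean probe set. The 11184 genes over log2 4 on at least 3 arrays entered a limma model (version 3.58.1, R 4.3.3) of 4 group means over 12 arrays, with lmFit, eBayes and 8 residual degrees of freedom, with Benjamini-Hochberg adjustment over all of them. Intervals are at 95%. Where arrays of the dimmer group lay under log2 4 they were set to log2 4, and such a fold is written as a lower bound. The code was tested on simulated data. The number of arrays limits the precision.

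The junction genes were all named. In each list up to 3 called genes with the largest change were named per time, and SNAI1, SNAI2, ZEB1, ZEB2, TWIST1, CDH2, JUP and CTNND1 whatever their values (a further gene of this rule is not reported here); a few further list members are named as examples of what was absent, or as markers. The members and lists were chosen with earlier results of these data known. Summed levels of markers are the log2 of the sum of linear values.

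Whether the labels' replicate numbers pair the samples was checked first. Deviations around group means had correlations of 0.279 to 0.577 for all 18 same-numbered pairs of arrays of different groups and at -0.372 to -0.0286 for the 36 other pairs, so the numbers paired the samples. The main fit left this pairing out, so its standard errors, intervals and p-values do not use it. The replicate block was fitted as an alternative, with other filters, scalings, probe-set rules, variance models and each array left out. With the block, 6 of the 8 junction genes were called lower at 24 h and 7 at 48 h. Of all 11184 tested genes, 3250 and 4249 were then called lower.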

Additional observations from a re-analysis of the deposited data

Results flagged for a closer look

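For 1 of the 8 tested junction genes (12.5%) and 11 other named genes, the change at 48 h differed from that at 24 h. The test was the limma interaction without the replicate block, in which 19.5% of all tested genes were called. The other genes were mostly named for a large called change at 24 h or 48 h. Such a choice favours genes that differ between the times, so their count is not set against that share. The values below are differences between the times, each as the 48 h change minus the 24 h change on the log2 scale. For OCLN the difference was -0.98 (adjusted p = 0.0157), with a fall at 48 h and a 24 h change that narrowly missed the threshold. GJA1 differed by -1.51 (adjusted p = 0.0141), and it was the gene with the profile most like that of OCLN.

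Among polarity genes, PATJ differed by -1.50 (adjusted p = 0.0199) and PARD6B by -1.35 (adjusted p = 0.00669), both lower at 48 h. GSK3B differed by -1.35 (adjusted p = 0.0205) and BTRC by -1.05 (adjusted p = 0.0222), also further down at 48 h. PLEKHA7 differed by -1.41 (adjusted p = 0.00321), since it was higher in Aa at 24 h alone, and its 2 probe sets had opposite signs there.

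The regulators SNAI1, SNAI2 and KLF4 differed by 2.94, 3.33 and 2.37 (adjusted p = 0.00202, 1.44e-05 and 0.00596), all higher at 48 h. DKK1 differed by 4.28 (adjusted p = 0.00235) and CCND1 by 1.89 (adjusted p = 0.0119). For SNAI1, SNAI2, PLEKHA7 and DKK1 some arrays lay under log2 4, so the size of the fitted difference carries no order.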

How the results depend on the processing

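The calls at 24 h and 48 h kept their counts within 1.5 times under every alternative run: 5093 to 6883 genes and 5 or 6 junction genes at 24 h, and 6636 to 8193 genes and 6 to 8 junction genes at 48 h. With one array left out, 4 to 6 junction genes were called at 24 h and 4 to 7 at 48 h. Results that moved or turned are given next, and the cause was not tested. With the replicate block, the difference between times had 4314 genes called (2179 without it) and 3 junction genes (1 without it), and the contrast of the controls 1669 (71 without it) and 1. The block changed 5 calls among junction genes, and those of ZEB1 and CDH3 at 24 h and JUP at 48 h among the list genes named. Among the markers, PDZK1 was called lower at 24 h with the block. The block also gave 2 fibroblast markers called lower at 24 h (1 without it) and 1 endothelial marker called higher at 48 h (0 without it). The difference between times called 2 junction genes with equal array medians and with a trended, robust variance, and without single arrays it called 1241 (without control replicate 3 at 24 h) to 2597 genes and 1 to 2 junction genes. With hybridisation-control scaling the difference between times had 334 genes higher and 1550 lower (761 and 1418 before), and the contrast of the controls 32 and 1921 (31 and 40 before). The contrast of the controls called 1953 genes with that scaling, 141 with a floor, 146 with the trended variance, 0 when fitted on the controls alone, and 9 (without control replicate 1 at 24 h) to 545 (without control replicate 3 at 48 h) with one array left out.

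Signs turned most often for CTNNB1, whose changes were near 0, and also for some larger changes. At 24 h CTNNB1 was at -0.26 with hybridisation-control scaling, -0.30 as the mean of its probe sets, -0.63 by its dimmer probe set, and -0.068 to 0.11 with one array left out. At 48 h these values were -0.39, -0.15, -0.18 and -0.016 to 0.10. Its difference between times was -0.030 with equal medians, -0.13 with hybridisation-control scaling and -0.062 to 0.12 with one array left out, and its control contrast -0.086, -0.0078 as the mean of probe sets and -0.25 by that probe set. TJP1 at 24 h was at 0.0022 with quantile normalization. CDH6, at -1.54 at 24 h, was by another probe set at 0.064 and at 0.37 between controls, and OCLN by a dim probe set at 0.31 at 24 h. The difference between times for CGN was -0.045 with equal medians, -0.14 with hybridisation-control scaling and -0.21 to 0.21 with one array left out, and for CTNNA1 -0.095 with that scaling and -0.046 by another probe set. Between controls, CDH1 was at -0.26 with that scaling and -0.14 to 0.37 with one array left out, and CLDN1 at -0.080 to 0.038. OCLN at 24 h passed under 6 of 12 alternatives and TJP1 at 48 h under 6 of 11. Under hybridisation-control scaling the desmosome median at 48 h was -0.31, ADAM17 was not called at 24 h (0.07), and RNF43 at 48 h was at -0.01, while DSP and TCF3 at 48 h and CBLL1 at both times lost their calls. Taken as the mean of its probe sets, TCF3 was at -0.28 at 24 h and -0.25 at 48 h, and PLEKHA7 lost its call at 24 h (0.16). With all values floored at log2 4, PKP2 lost its call at 48 h (-0.44).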
